A study of Homo sapiens with 36 samples.

Results

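Fibrinogen and several of the clotting factors are usually thought of as products of the liver. A549 cells transcribed 8 genes of fibrinogen, clotting and its inhibition without stimulation. The transcripts were followed in these cells through 21 days of IL-1β and 30 days without it. The genes are FGA, FGB and FGG, which encode the 3 fibrinogen chains, F2, F5, F7, F3 and TFPI. They were chosen by name, as rows of the count tables whose Ensembl identifier maps to these symbols, and make up 8 of the 63677 genes listed and 8 of the 19180 genes with enough counts to be tested. Their choice had used their level in untreated cells and their difference between IL-1β and control at each of 6 time points, so these values are given as a description and without a test.

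A549 is an established human lung adenocarcinoma line, so all libraries come from 1 line. Cells were cultured with IL-1β at 1 ng/ml, renewed at each passage, and collected at days 6, 15 and 21. Other cells had IL-1β withdrawn after 21 days and were collected 6, 15 and 30 days later. Untreated A549 cells were collected beside each of these 6 groups, with 3 replicates in each of the 12 groups and 36 libraries of bulk poly(A) RNA in all. The labels call the replicates biological without saying whether they were separate cultures, so the spread between them may in part be technical.

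Fibrinogen is a secreted protein built from pairs of an alpha, a beta and a gamma chain, which are the products of FGA, FGB and FGG. Thrombin, the active form of prothrombin (F2), cuts fibrinogen so that it polymerises into fibrin. Clotting starts when tissue factor (F3), a receptor in the cell membrane, binds the protease factor VII (F7). Factor V (F5) is the cofactor with which factor X then activates prothrombin, and tissue factor pathway inhibitor (TFPI) blocks the complex of tissue factor, factor VII and factor X. In hepatocytes the fibrinogen genes are driven by C/EBP proteins among others and respond to IL-6 through STAT3, and tissue factor is an early response gene with AP-1 and NF-κB sites before its start.

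The 3 fibrinogen genes lie side by side on chromosome 4, within 50.0 kb. In GRCh37, the build of the counts, FGB (ENSG00000171564) spans chr4:155484163-155493959 on the plus strand. FGA (ENSG00000171560) spans chr4:155504278-155511894 on the minus strand, and FGG (ENSG00000171557) spans chr4:155525286-155534119 on the minus strand. FGB and FGA are separated by 10.3 kb, and FGA and FGG by 13.4 kb. The other genes are scattered. F2 (ENSG00000180210) spans chr11:46740746-46761056, F7 (ENSG00000057593) chr13:113760102-113774999, F5 (ENSG00000198734) chr1:169481189-169555826, F3 (ENSG00000117525) chr1:94994729-95007315 and TFPI (ENSG00000003436) chr2:188328957-188430487. Among the 8 genes, only TFPI shares exonic bases with another annotated gene. These are 118 bases, 1.01% of its exons, shared with CALCRL-AS1 on the opposite strand.

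The sequences before the starts of the 3 fibrinogen genes and of F3 are shown because these genes moved in opposite directions under IL-1β. Each is the 250 bases that precede a start in RefSeq, in the build GRCh38.p14, written along the gene's strand. They lie at chr4:154562730-154562979 on the plus strand for FGB, chr4:154590743-154590992 on the minus strand for FGA, chr4:154612657-154612906 on the minus strand for FGG and chr1:94541760-94542009 on the minus strand for F3. Capitals mark matches to 4 short motifs, searched on both strands and chosen after the sequences had been looked at. The motifs were TTNNGNAA, a C/EBP-type site; CTGGGAA, an IL-6 response type element; TGAGTCA, an AP-1 site; and GGAGTTTCC, an NF-κB-like site known from F3.
FGB: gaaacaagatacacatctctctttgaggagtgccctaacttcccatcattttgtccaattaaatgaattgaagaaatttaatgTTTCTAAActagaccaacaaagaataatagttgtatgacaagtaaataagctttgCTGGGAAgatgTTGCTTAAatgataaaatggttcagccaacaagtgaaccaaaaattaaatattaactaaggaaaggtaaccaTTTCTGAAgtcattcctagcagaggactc
FGA: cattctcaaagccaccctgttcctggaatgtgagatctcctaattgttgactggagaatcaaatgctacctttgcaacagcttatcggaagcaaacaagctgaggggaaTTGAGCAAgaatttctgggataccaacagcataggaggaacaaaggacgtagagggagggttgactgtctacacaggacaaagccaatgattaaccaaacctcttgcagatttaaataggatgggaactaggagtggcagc
FGG: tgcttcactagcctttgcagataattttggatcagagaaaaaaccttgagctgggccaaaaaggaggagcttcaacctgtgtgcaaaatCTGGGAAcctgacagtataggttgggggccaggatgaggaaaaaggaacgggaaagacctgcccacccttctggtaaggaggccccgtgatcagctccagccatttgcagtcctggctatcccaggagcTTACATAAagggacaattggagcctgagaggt
F3: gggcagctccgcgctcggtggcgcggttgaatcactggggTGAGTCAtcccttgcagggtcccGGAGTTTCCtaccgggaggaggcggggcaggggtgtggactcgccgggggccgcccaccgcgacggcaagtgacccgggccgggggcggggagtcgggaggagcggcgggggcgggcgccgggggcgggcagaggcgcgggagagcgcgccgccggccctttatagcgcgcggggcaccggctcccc

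The letters CTGGGAA stood before FGB and FGG, and occur in 9.15% of the 35116 promoters in the same table. TTNNGNAA stood before all 3 fibrinogen genes and TFPI, at a background of 33.2%. TGAGTCA and GGAGTTTCC stood, of the 8 genes, only before F3, at backgrounds of 4.2% and 0.424%. GGAGTTTCC is known from F3, so its match there was fixed in advance. As all 4 motifs were chosen with the sequences in view, the backgrounds do not measure how unusual the matches are. The promoters of F2, F5 and F7 held none of these letters in this window. The matches describe the sequence and were not tested as sites.

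In untreated cells TFPI was the most abundant of these transcripts and F7 the least. Levels are in CPM, the share of a library's counts after TMM scaling, and are compared between genes per kb of annotated exons. In 18 control libraries, the median was 8.82 CPM per kb for TFPI, 6.33 for FGA, 2.91 for FGB, 0.885 for F3 and 0.412 for F2. It was 0.271 CPM per kb for FGG, 0.118 for F5 and 0.106 for F7. The ranges over the control libraries of neighbours in this order overlapped, except between F3 and FGB. The length used is that of all annotated exons merged, which for genes with many transcripts, such as TFPI, is longer than 1 mRNA.

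The 3 chains enter the protein in equal number, but their transcripts were not equally abundant. Within a control library, FGA stood 1.97-fold above FGB per kb at the median, with a range of 1.32 to 3.25. FGB stood 10.1-fold above FGG, ranging from 4.16 to 20.3, and FGA 19.5-fold above FGG, ranging from 9.46 to 43.6. The order FGA, FGB, FGG held in each of the 18 control libraries, though FGG rested on as few as 6 counts in a library.

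The A549 cells lacked defining markers of hepatocytes, though some other genes known from liver were expressed. The control median was 126 CPM for CP, which encodes ceruloplasmin, 17.1 CPM for HNF4A and 4.37 CPM for VTN, which encodes vitronectin. Of 6 hepatocyte markers only CPS1 reached 1 CPM at the median of the control libraries, and ALB and APOA2, which encode albumin and apolipoprotein A-II, had at most 1 count in any library. The summed hepatocyte markers ranged from 9.27 to 22.3 CPM in control and from 6.29 to 17.1 CPM in IL-1β libraries. Of 9 lung epithelial markers 4 reached 1 CPM, with CDH1, KRT8 and KRT18 the most abundant, whereas NKX2-1, SFTPC and KRT19 had at most 5 counts in any library. The summed epithelial markers ranged from 2902 to 7626 CPM in control and from 901 to 5144 CPM in IL-1β libraries. Of the 4 platelet markers none reached 1 CPM and GP9 had no count. None of the 3 endothelial markers found reached 1 CPM, and of 4 leukocyte markers CD14 did. The part of these markers in the results was not tested.

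The libraries held 9116032 to 23570026 counts on genes, of which 1075 to 4362 lay on these 8. A group of 11 libraries, 6 from control and 5 from IL-1β or withdrawn cells, stood apart with mitochondrial shares of 11.8% to 24.6%, while the 25 others had 5.61% to 7.75%. Day 6 after withdrawal and day 15 after withdrawal each kept 1 control library without them. For the 8 genes, values without these 11 libraries are given beside each log2 fold change that moved by over 0.5, and beside some that moved less. They are not given for the other genes named, of which some moved as far. SERPINA1 at day 6 went from 3.12 to 3.83, and PROC at day 15 from -2.06 to -2.59. Control replicate 3 at day 15 is not among the libraries rich in mitochondrial counts. It stood above both other replicates for FGA, FGB, FGG, F2, F5, F7 and TFPI and below them for F3.

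**Figure D1:**
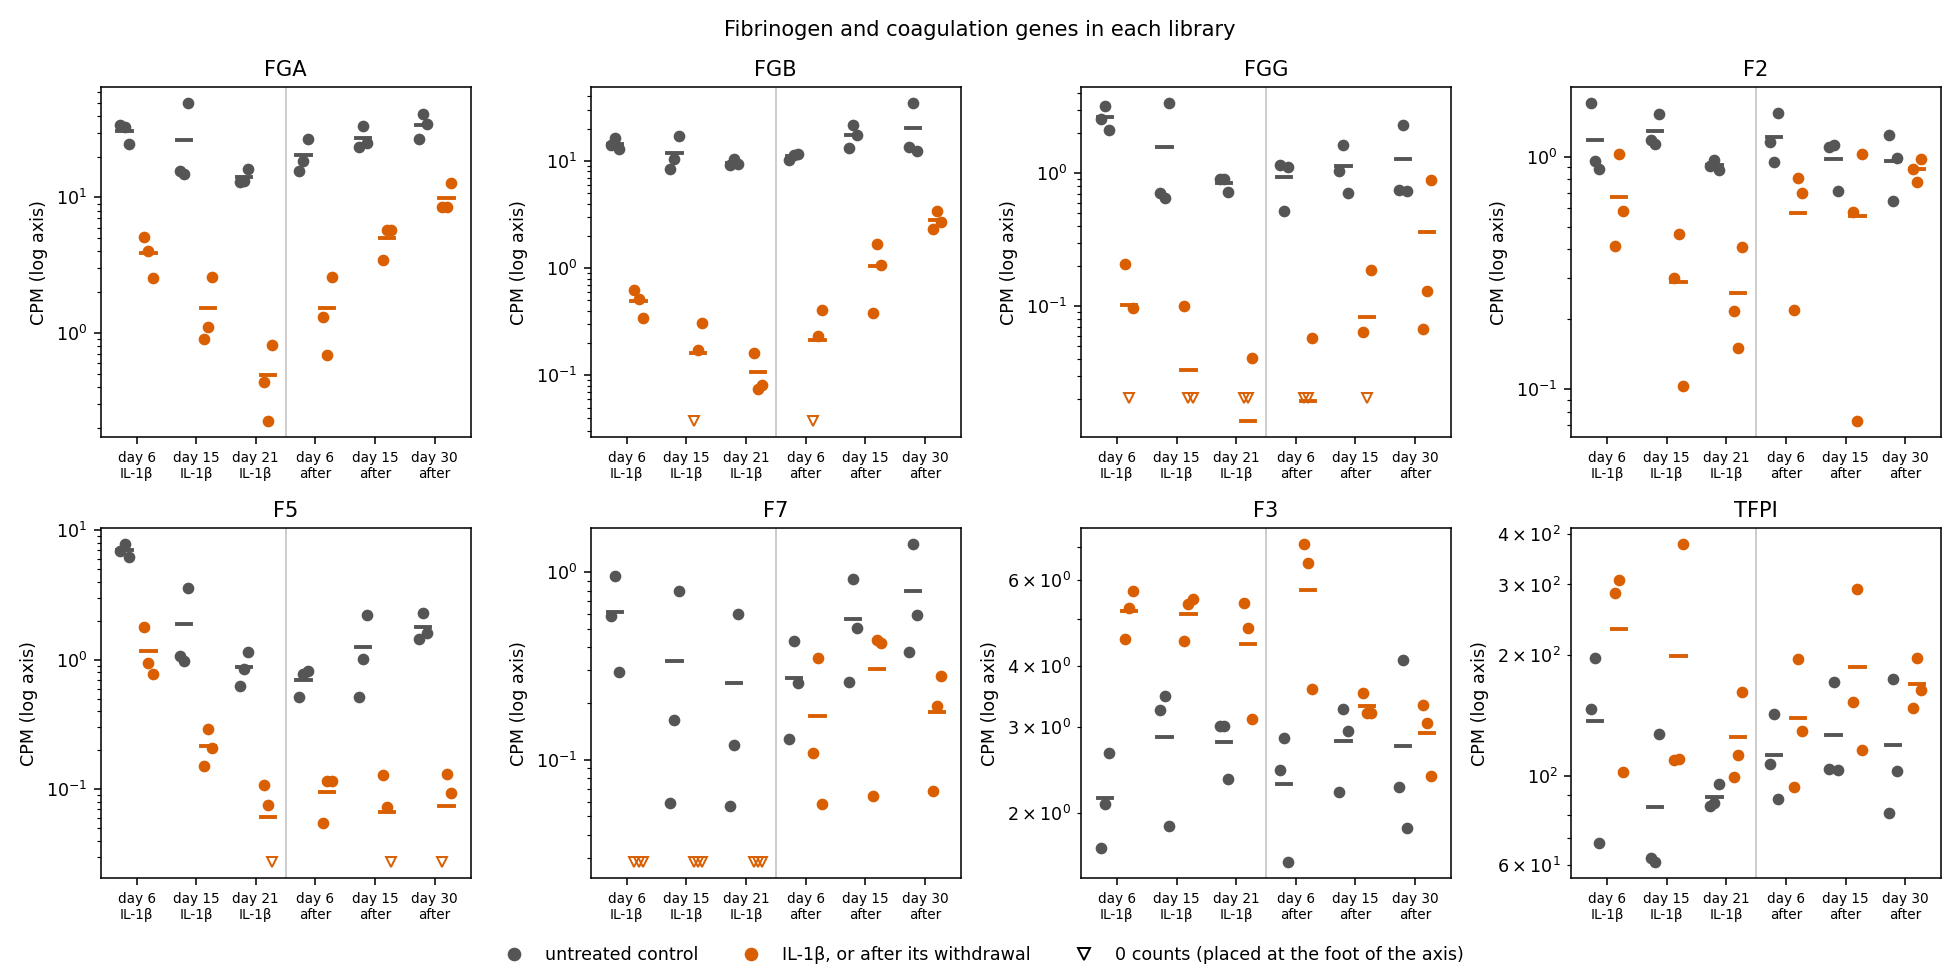
Level of each gene in CPM on log axes, 1 panel per gene and 1 point per library, for untreated control (grey) and IL-1β or withdrawal (orange) at 6 collections, with group means as bars and libraries with 0 counts as open triangles at the foot of the axis. The orange FGA points rise from between 0.225 and 0.821 at day 21 to between 8.49 and 12.8 at day 30 after withdrawal, while those of F5 stay at or below 0.130 from day 21 on.

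FGA, FGB and FGG were lower in every IL-1β library than in every control library at days 6, 15 and 21, and their difference from control narrowed after withdrawal. FGA was at 34.3, 33.1 and 24.6 CPM in control and at 5.11, 4.02 and 2.53 CPM after 6 days of IL-1β, a log2 fold change of -2.99 (standard error 0.44). At day 15 the control libraries held 15.6, 15.0 and 49.5 CPM and the exposed ones 0.901, 1.10 and 2.59 CPM, a log2 fold change of -4.21 (standard error 0.48; -4.74 without the libraries rich in mitochondrial counts). At day 21 they held 13.05, 13.2 and 16.1 against 0.434, 0.225 and 0.821 CPM, a log2 fold change of -4.72 (standard error 0.52). The groups did not overlap at any of these days, and the exposed libraries of day 21 all lay below those of days 6 and 15. In bulk RNA, fewer cells that express a gene cannot be told apart from less of its RNA per cell.

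After withdrawal the exposed cells held more FGA at each successive collection, but stayed below control to the last one. At day 6 after withdrawal the control libraries held 15.7, 18.6 and 27.1 CPM and the exposed ones 1.31, 0.696 and 2.61 CPM (log2 fold change -3.67, standard error 0.47). At day 15 after withdrawal FGA was at 23.7, 33.4 and 25.0 against 3.46, 5.75 and 5.78 CPM (log2 fold change -2.45, standard error 0.43). At day 30 it was at 26.7, 40.9 and 35.0 against 8.49, 8.52 and 12.8 CPM (log2 fold change -1.78, standard error 0.41). The highest exposed library thus lay below the lowest control library at each of the 6 collections. On the log2 scale, 77.6%, 51.8% and 37.6% of the day 21 difference was left at days 6, 15 and 30 after withdrawal.

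FGB fell further, to a few reads per library. At day 6 it was at 14.1, 16.5 and 12.9 CPM in control and 0.621, 0.512 and 0.341 CPM with IL-1β, a log2 fold change of -4.89 (standard error 0.54). At day 15 the control libraries held 8.46, 10.4 and 17.0 CPM, and the exposed ones 0, 0.174 and 0.310 CPM, which is 6 counts in all. This is a control-to-exposed ratio of 95.4 for counts pooled over the libraries of a group, with an exact 95% interval of 43.6 to 261. The fitted log2 fold change, which depends on the prior count at so few reads, moved from -6.41 to -7.10 without the libraries rich in mitochondrial counts. As for all such ratios below, the interval covers counting error only and not the spread between replicates. At day 21, FGB was at 9.12, 10.4 and 9.32 CPM against 0.163, 0.0749 and 0.0821 CPM, a ratio of 89.4 (interval 40.8 to 245).

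The exposed FGB libraries remained near this level 6 days after withdrawal and were higher at the later collections. At day 6 after withdrawal they held 0, 0.232 and 0.405 CPM against 10.2, 11.4 and 11.6 CPM in control, a log2 fold change of -5.70 (standard error 0.61). At day 15 they held 0.385, 1.67 and 1.07 against 13.1, 21.8 and 17.6 CPM (log2 fold change -4.07, standard error 0.50). At day 30 they held 2.31, 3.38 and 2.71 against 13.5, 34.6 and 12.5 CPM (log2 fold change -2.83, standard error 0.45). No exposed library reached a control library at any collection. Control replicate 2 at day 30, one of the libraries rich in mitochondrial counts, stood above its fellows for FGB, and without those libraries the log2 fold change was -2.35.

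FGG, the least abundant chain, was at or near 0 counts under IL-1β. At day 6 it was at 2.55, 3.22 and 2.13 CPM in control and 0.207, 0 and 0.0974 CPM with IL-1β, a ratio of 25.0 (interval 10.4 to 78.4). At days 15 and 21 the exposed libraries held 2 counts and 1 count in all, against 92 and 49 in control, with ratios of 38.8 (interval 10.4 to 325) and 46.4 (interval 7.95 to 1871). At day 6 after withdrawal the exposed libraries again held 1 count, against 41, a ratio of 42.5 (interval 7.22 to 1720). These intervals are wide because the exposed libraries hold so few reads, and the size of the fall is not known beyond them. At day 15 after withdrawal FGG was at 0.0641, 0 and 0.186 CPM against 1.04, 1.63 and 0.711 CPM, a log2 fold change of -3.44 (standard error 0.90) that was -2.89 without the libraries rich in mitochondrial counts.

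At day 30 after withdrawal the exposed FGG libraries differed among themselves, at 0.0679, 0.130 and 0.889 CPM against 0.753, 2.32 and 0.738 CPM in control. Replicate 3 of the exposed cells lay within the control range and the other exposed libraries below it, so the groups overlapped. The log2 fold change was -1.49 (standard error 0.71), moved to -3.73 without replicate 3, and was -0.47 without the libraries rich in mitochondrial counts. In the same library FGA (12.8 CPM) and FGB (2.71 CPM) were still below control.

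Factor V, the cofactor that activates prothrombin together with factor X, showed no such return, and its exposed libraries stayed near 0 counts to the last collection. At day 6 F5 was at 6.93, 7.83 and 6.26 CPM in control and 1.79, 0.950 and 0.779 CPM with IL-1β, a log2 fold change of -2.59 (standard error 0.47). At day 15 it was at 1.06, 0.975 and 3.61 against 0.150, 0.290 and 0.207 CPM (log2 fold change -3.10, standard error 0.60). At day 21 it was at 0.627, 0.845 and 1.16 against 0.109, 0.0749 and 0 CPM, a ratio of 17.1 (interval 5.53 to 85.3). The exposed libraries lay below all control libraries at each of these days, and at day 21 held 3 counts in all.

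After withdrawal the exposed F5 libraries held 4, 3 and 4 counts in all at days 6, 15 and 30, and none exceeded 0.130 CPM. By day 6 after withdrawal control stood at 0.516, 0.777 and 0.816 CPM, a ratio of 8.30 (interval 2.94 to 32.3). At day 15 it stood at 0.519, 1.02 and 2.23 CPM, a ratio of 19.3 (interval 6.16 to 97.7). The fitted log2 fold change of F5 at day 15 moved from -4.17 to -3.10 without the libraries rich in mitochondrial counts, which left 1 control library. At day 30 control stood at 1.45, 2.32 and 1.62 CPM and the exposed libraries at 0, 0.130 and 0.0935 CPM, a ratio of 21.5 (interval 8.07 to 80.9). The groups were apart at all 3 collections, in part by few counts. At day 6 after withdrawal the lowest control library held 4 counts and the exposed ones 1, 1 and 2. At day 15 after withdrawal control replicate 1 held 8 counts and the exposed libraries 2, 1 and 0.

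The 2 protease genes were low in untreated cells, and their differences rest on few counts. Prothrombin, F2, was at 1.70, 0.957 and 0.886 CPM in control and 0.414, 1.02 and 0.585 CPM with IL-1β at day 6, so the groups overlapped (log2 fold change -0.83, standard error 0.47). At day 15 it was at 1.18, 1.14 and 1.53 against 0.300, 0.465 and 0.103 CPM, a log2 fold change of -2.01 (standard error 0.51). At day 21 it was at 0.912, 0.965 and 0.876 against 0.217, 0.150 and 0.410 CPM, a log2 fold change of -1.70 (standard error 0.52). At both later days every exposed library was below every control library. The log2 fold change was -1.20, -0.72 and -0.17 at days 6, 15 and 30 after withdrawal, with overlapping groups at the last 2 collections. Without the libraries rich in mitochondrial counts the first 2 of these became -1.74 and -0.41. At day 6 of IL-1β it moved to -0.20 without replicate 1, and at day 15 after withdrawal to -1.71 without replicate 3.

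Factor VII, F7, had 0 counts in all 9 libraries taken during IL-1β exposure. Control libraries held 9, 11 and 5 counts at day 6, 1, 3 and 16 at day 15, and 1, 2 and 15 at day 21. With a floor of 3 counts per exposed library, the control mean of F7 stood 3.22-fold above that floor at day 6. It stood 1.60-fold above it at day 15 and 1.52-fold at day 21. The values of days 15 and 21 rest on control replicate 3, as replicates 1 and 2 held 3 or fewer counts themselves. A floor of 10 counts would leave no bound above 1. After withdrawal the gene was again detected in each of the 9 exposed libraries, with 1 to 9 counts. The groups overlapped at days 6 and 15 after withdrawal, with log2 fold changes of -0.96 (standard error 1.08) and -0.76 (standard error 0.85), which were -1.52 and 0.03 without the libraries rich in mitochondrial counts. At day 30 F7 was at 0.376, 1.42 and 0.590 CPM in control and 0.0679, 0.195 and 0.281 CPM in exposed cells, a log2 fold change of -1.84 (standard error 0.86; -1.31 without those libraries).

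Tissue factor moved the other way. At day 6 F3 was at 1.70, 2.09 and 2.66 CPM in control and 4.55, 5.26 and 5.70 CPM with IL-1β, a log2 fold change of 1.26 (standard error 0.30). At day 15 it was at 3.25, 3.47 and 1.88 against 4.51, 5.34 and 5.48 CPM (log2 fold change 0.83, standard error 0.29). At day 21 it was at 3.02, 3.02 and 2.35 against 5.38, 4.79 and 3.12 CPM (log2 fold change 0.66, standard error 0.29). All exposed libraries lay above all control libraries at these days, by a small margin at day 21. By day 6 after withdrawal F3 was at 2.45, 2.85 and 1.59 CPM in control and 7.10, 6.49 and 3.59 CPM in cells withdrawn from IL-1β, a log2 fold change of 1.34 (standard error 0.30). At days 15 and 30 after withdrawal the groups overlapped, with log2 fold changes of 0.25 and 0.14 (standard errors 0.30 and 0.30). Without the libraries rich in mitochondrial counts these were 0.61 and 0.46.

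TFPI, the inhibitor of the tissue factor complex, was spread widely between replicates. At day 6 it was at 147, 197 and 68.2 CPM in control and 286, 307 and 102 CPM with IL-1β, a log2 fold change of 0.76 (standard error 0.46). At day 15 it was at 62.6, 61.1 and 127 against 110, 110 and 378 CPM (log2 fold change 1.25, standard error 0.47). Replicate 3 was the lowest at day 6 and the highest at day 15 in both groups, and the groups overlapped at both days. The exposed replicate 3 of day 15 is one of the libraries rich in mitochondrial counts, and without those the log2 fold change was 0.40. At day 21 it was at 84.4, 85.8 and 95.7 against 99.7, 113 and 162 CPM (log2 fold change 0.50, standard error 0.46), with no overlap. After withdrawal the groups overlapped at each collection, with log2 fold changes between 0.31 and 0.57.

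**Figure D2:**
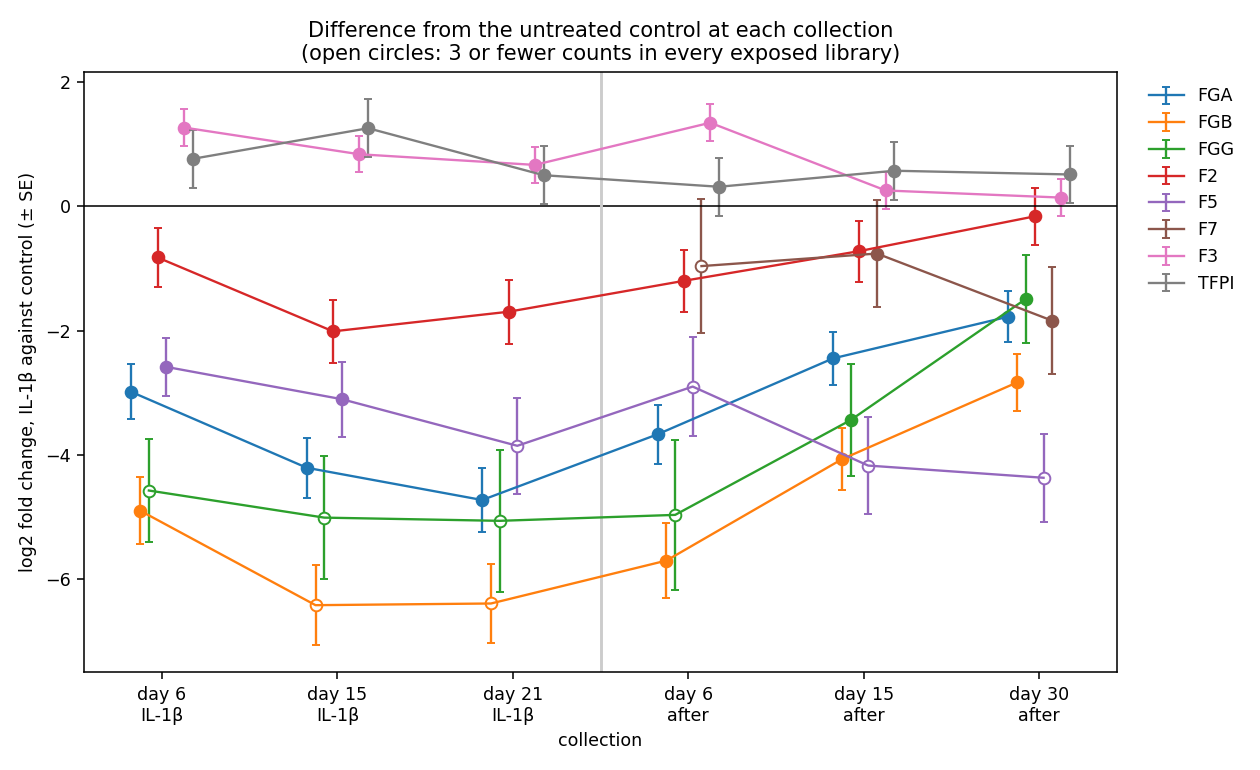
Log2 fold change of each gene, IL-1β minus untreated control, at the 6 collections in time order (horizontal axis), with bars of 1 standard error, and with open circles where each exposed library held 3 or fewer counts, so that the fitted value depends on the prior count. The fibrinogen genes return towards 0 after withdrawal, FGA from -4.72 at day 21 to -1.78 at day 30, whereas F5 stays at -2.59 or lower throughout.

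Across the 8 genes, 5 were past both thresholds (adjusted p under 0.05 and a fold change over 2) in the lower and 1 in the higher direction at day 6. Over all genes tested, 1.25% were past both thresholds lower and 1.52% higher at that day, 2.77% together. At day 15, 5 of the 8 were past both lower and 0 higher, beside 2.3% and 1.94% of all genes (4.24% together). At day 21, 5 were lower and 0 higher, beside 2.06% and 2.19% (4.26% together). For day 6 after withdrawal 4 were lower and 1 higher (0.725% and 1.08% of all genes, 1.8% together). Both later collections had 3 lower and 0 higher (0.36% and 0.594%, 0.954% together, for day 15, and 0.464% and 0.433%, 0.897% together, for day 30). Since the choice of the genes had used these contrasts, nothing is read from the counts. The genes past both thresholds at day 30 after withdrawal were FGA, FGB and F5.

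Counting libraries alone, all exposed libraries lay below all control libraries in 5, 6 and 6 genes at days 6, 15 and 21 of IL-1β. Of all genes tested, 11.2%, 13.9% and 15.2% did. They lay above in 1, 1 and 2 genes, beside 10.6%, 11.5% and 13.8% of all genes. After withdrawal they lay below in 5, 4 and 4 genes at days 6, 15 and 30, beside 5.24%, 4.9% and 5.11% of all genes, and above in 1, 0 and 0 genes, beside 5.51%, 6.02% and 6.78%. At day 21 none of the 8 genes overlapped, 6 being lower and 2 higher. For F7 the separation rests on control libraries of 1, 2 and 15 counts against 0 in each exposed library. The count of day 15 also includes F7, with 1, 3 and 16 control counts against 0. As the choice of the genes had used these contrasts, nothing is read from these counts either.

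Differences between control collections were not among the contrasts used to choose the genes, and were tested. The choice had used the level of untreated cells, so this test is not independent of it. In an edgeR test across the 6 control collections, F5 was the only gene of 19180 with an adjusted p under 0.05, which is 0.00521% of the genes tested, while 695 genes (3.62%) had an unadjusted p under 0.05. Its mean was 7.01 ± 0.786 CPM (SD, n = 3) at the first collection, 1.88 ± 1.50 at day 15, 0.875 ± 0.265 at day 21, 0.703 ± 0.163 beside day 6 after withdrawal, and 1.26 ± 0.882 and 1.80 ± 0.457 beside days 15 and 30 after withdrawal. The test of F5 gave an edgeR quasi-likelihood p of 3.03e-07 and an adjusted p of 0.00581. All 3 libraries of the first collection lay above all other control libraries. Against it, F5 fell by 2.97 on the log2 scale at day 21 (standard error 0.47, edgeR adjusted p = 0.0171) and by 3.25 at day 6 after withdrawal (standard error 0.50, edgeR adjusted p = 0.0108). The log2 differences of -1.88, -2.52 and -2.00 at the other collections did not pass (edgeR adjusted p = 1.0, 0.280 and 0.732).

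The result for F5 in control cells depended on the libraries entered. Without replicate 1 or without replicate 2, 0 genes had an adjusted p under 0.05, and F5 ranked 1 by p. Without replicate 3, 55 genes had one, and F5 ranked 5 by p. Without replicate 3 its edgeR adjusted p was 0.00233, without replicates 1 or 2 it was 1.0 and 0.999, and without the 11 libraries rich in mitochondrial counts 0.134. For the other 7 genes no difference between control collections was found, with unadjusted p-values from 0.0591 for FGA to 0.824 for F2 and an edgeR adjusted p of 0.981 for each. DESeq2's likelihood ratio test on the control libraries called 25 genes, F5 among them (adjusted p = 9.64e-08), and a separate edgeR fit of the control libraries called none (adjusted p of F5 0.240, 597 genes with an unadjusted p under 0.05). The level that each exposed F5 group is set against was thus not constant, and the exposed libraries were lower at day 21 (at most 0.109 CPM) than at day 6 (at least 0.779 CPM) as well.

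**Figure D3:**
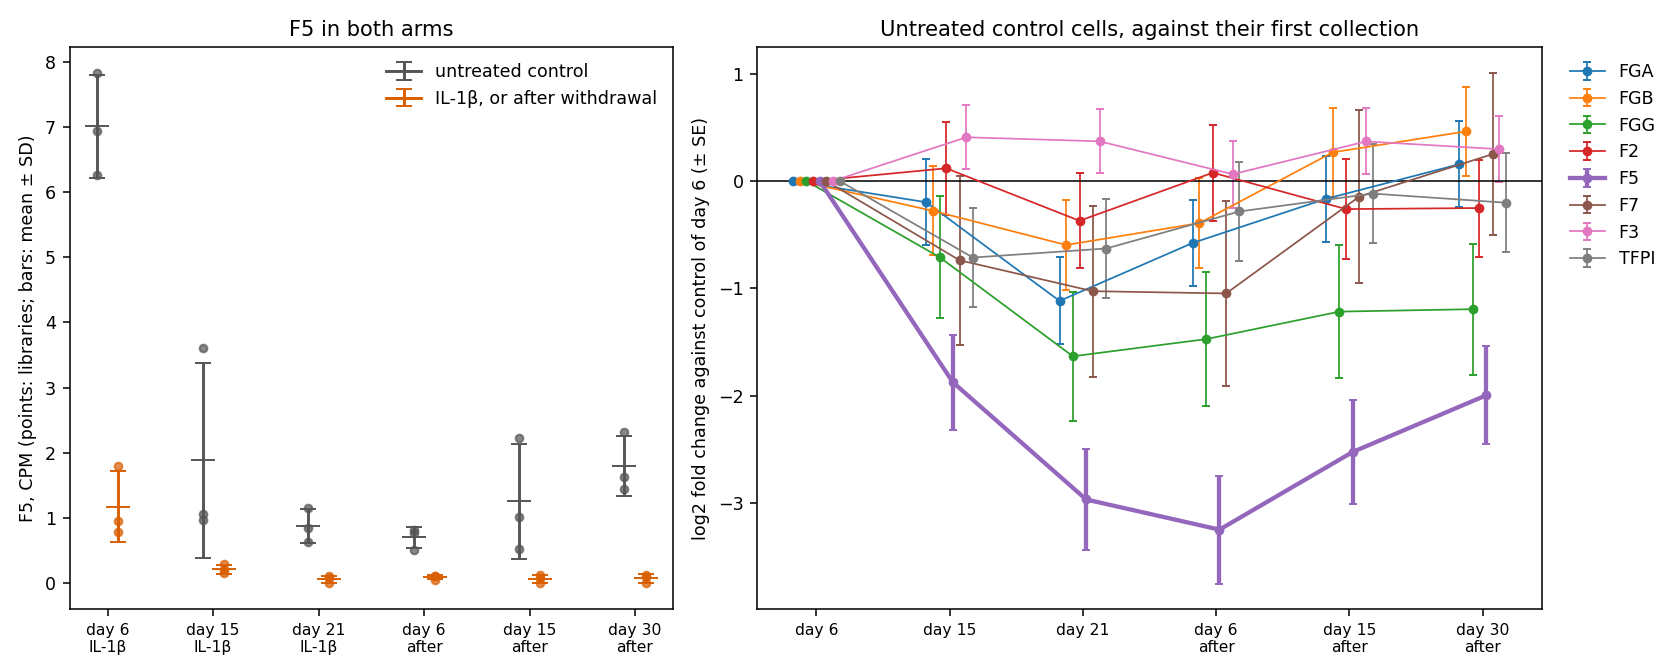
Left, F5 in CPM in both arms at each collection, with points for libraries and bars for mean ± SD; right, log2 fold change of the 8 genes in untreated cells against their day 6 collection, with bars of 1 standard error. The control mean of F5 drops from 7.01 at day 6 to 0.703 at day 6 after withdrawal, and F5 is the lowest line at each later collection.

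Over the 36 libraries, FGA and FGB varied together with a Pearson r of 0.955 of log2 CPM. The correlation with FGG was 0.884 for FGA and 0.896 for FGB. F3 ran opposite to FGA (r = -0.781), and TFPI showed little relation to it (r = -0.174). These values describe 12 groups of 3 libraries and all share the contrast between exposed and control cells. Of 11866 other protein-coding genes with a mean of at least 1 CPM in control, those most like the mean of the 3 fibrinogen genes were VAV3 (r = 0.970), INHBB (0.966), FGL1 (0.965), MYO1E (0.963) and MTUS1 (0.962). Those most like F3 were ZBTB18 (0.876), BCL2A1 (0.854), HYCC1 (0.850), SRGN (0.847) and EREG (0.844).

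The gene next to the fibrinogen genes was not called. PLRG1, a splicing factor gene 12.6 kb from FGB, was at 57.8, 63.3 and 59.3 CPM in control and 60.2, 54.3 and 52.1 CPM with IL-1β at day 21. Its log2 fold change ranged from -0.25 to 0.07 over the 6 collections, with no call at any. LRAT, on the other side, held at most 8 counts in any library and was not tested. Within 200 kb of the 8 genes there were 62 other genes, of which 19 were protein-coding and tested, with a median log2 fold change of -0.04 at day 21.

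At days 6, 15 and 21, when 2.77%, 4.24% and 4.26% of all genes were called, 1 of these 19 neighbours was, MCF2L. It encodes a guanine nucleotide exchange factor and ends 6.0 kb before F7. It fell by 1.44, 2.15 and 1.90 on the log2 scale at days 6, 15 and 21 (edgeR adjusted p = 0.0481, 0.00313 and 0.00817). At day 21 MCF2L was at 1.60, 2.05 and 1.27 CPM in control against 0.217, 0.599 and 0.492 CPM, with no overlap. Without replicate 1 none of the 3 calls was left (edgeR adjusted p = 0.856, 0.139 and 0.384), those of days 6 and 21 were also lost without replicate 2 (0.101 and 0.0534) and those of days 6 and 15 without replicate 3 (0.0898 and 0.104). F10, which encodes factor X and lies 2.1 kb on the other side of F7, held at most 7 counts in any library and was not tested.

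**Figure D4:**
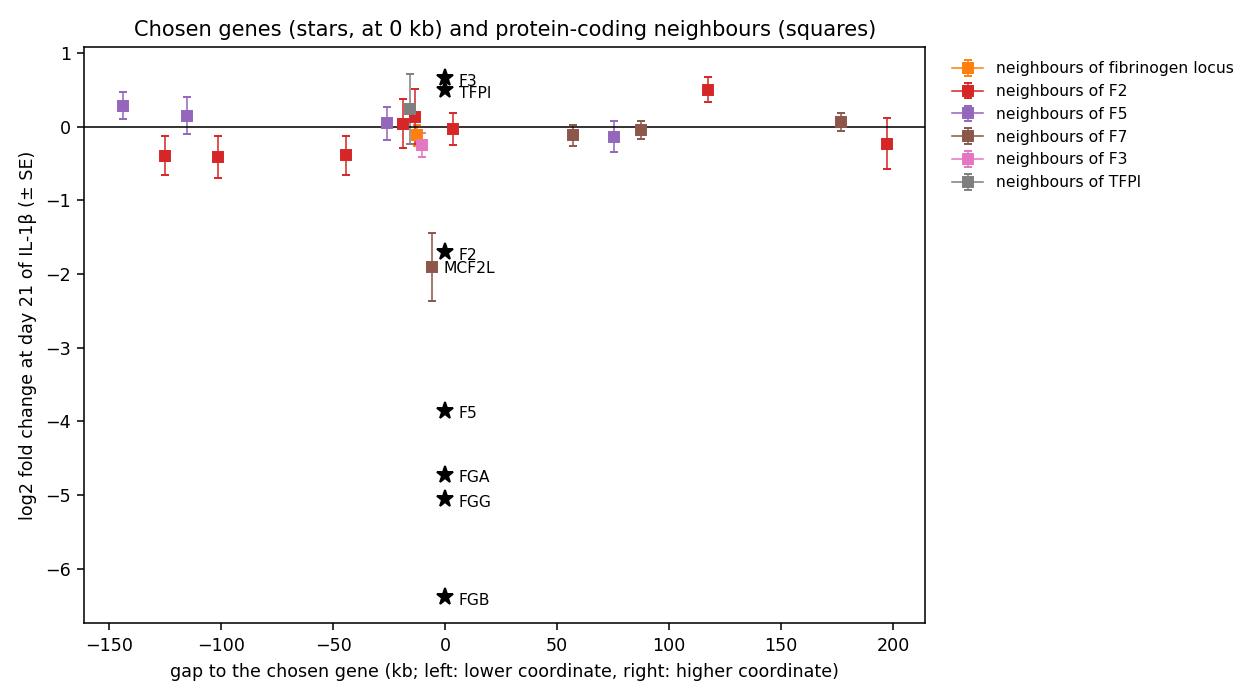
Log2 fold change at day 21 of IL-1β (vertical axis, bars of 1 standard error) of protein-coding genes within 200 kb, against their gap to the chosen gene in kb, with stars for the chosen genes at 0; F7, with 0 counts in exposed cells, has no star. MCF2L, beside F7, stands at -1.90 and the other neighbours lie within 0.51 of 0.

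Most other genes of coagulation were not called. Of 29 such genes, all found in the tables, 16 were tested, and 13 had too few counts, among them F9 and F11 with 0 counts in any library and VWF, SERPINC1 and F10 with at most 5, 2 and 7. One was called higher and 1 lower at days 6 and 15, and 1 higher and 2 lower at day 21. Of all genes tested, 2.77%, 4.24% and 4.26% were called at days 6, 15 and 21. The list was chosen with earlier results of these data known, so its counts are a description. The median log2 fold change of the 16 was 0.10, 0.14 and 0.05 at these days, beside -0.02, -0.02 and -0.01 over all genes. By day 6 after withdrawal 1 gene was higher, beside 1.08% of all genes. At days 15 and 30 after withdrawal none was called by edgeR or by DESeq2's Wald test, while 3 genes had an unadjusted p under 0.05 at each.

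PROC, which encodes the anticoagulant protein C, fell at all 3 days of exposure. At day 6 it was at 1.90, 1.22 and 1.24 CPM in control and at 0.0690, 0.146 and 0.292 CPM with IL-1β, a log2 fold change of -2.96 (edgeR adjusted p = 0.00542). At days 15 and 21 it fell by 2.06 and 2.06 on the log2 scale (edgeR adjusted p = 0.0388 and 0.0362). The groups of PROC did not overlap at any of these days. Without replicate 1 the edgeR adjusted p was 0.443, 0.414 and 0.453. The calls of days 15 and 21 were also lost without replicate 2 (0.0995 and 0.221), that of day 15 without replicate 3 (0.116), and with total counts as the scaling both were lost too (0.0517 and 0.0590).

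F2RL2, which encodes the thrombin receptor PAR3, rose. At day 6 it was at 6.73, 8.70 and 8.74 CPM in control and 19.5, 19.2 and 34.2 CPM with IL-1β. At day 21 F2RL2 was at 8.83, 10.3 and 14.2 against 34.5, 50.3 and 26.2 CPM, with no overlap. The log2 fold changes were 1.60, 1.81 and 1.73 at days 6, 15 and 21 (edgeR adjusted p = 0.0115, 0.00243 and 0.00341), and without replicate 1 the adjusted p was 0.382, 0.147 and 0.271. The call of day 6 was also lost without replicate 3 (0.105). The other thrombin receptors tested, F2R and F2RL1, had log2 fold changes of -0.22 and -0.04 at day 21 and were not called.

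Another 2 coagulation genes, named here after their values were seen, were called once each. F13A1, the catalytic subunit of the fibrin cross-linking factor XIII, fell by 2.59 on the log2 scale at day 21 (edgeR adjusted p = 0.0135), and THBD, the endothelial thrombin cofactor thrombomodulin, was 1.12 higher at day 6 after withdrawal (edgeR adjusted p = 0.0250). Neither call was left without replicate 1 (edgeR adjusted p = 0.235 and 0.508) or replicate 2 (0.0863 and 0.341), and that of F13A1 was also lost without replicate 3 (0.0681). GGCX and VKORC1, the enzymes of the vitamin K dependent modification that prothrombin and factor VII need, had log2 fold changes of 0.04 and 0.11 at day 21. LMAN1 and MCFD2 carry factor V out of the endoplasmic reticulum. LMAN1 had a log2 fold change of 0.18 at that day and was not called. MCFD2 was 0.35, 0.53 and 0.48 higher on the log2 scale at days 6, 15 and 21, which passed the test (edgeR adjusted p = 0.0264, 0.000297 and 0.000865) but not the fold threshold.

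**Figure D5:**
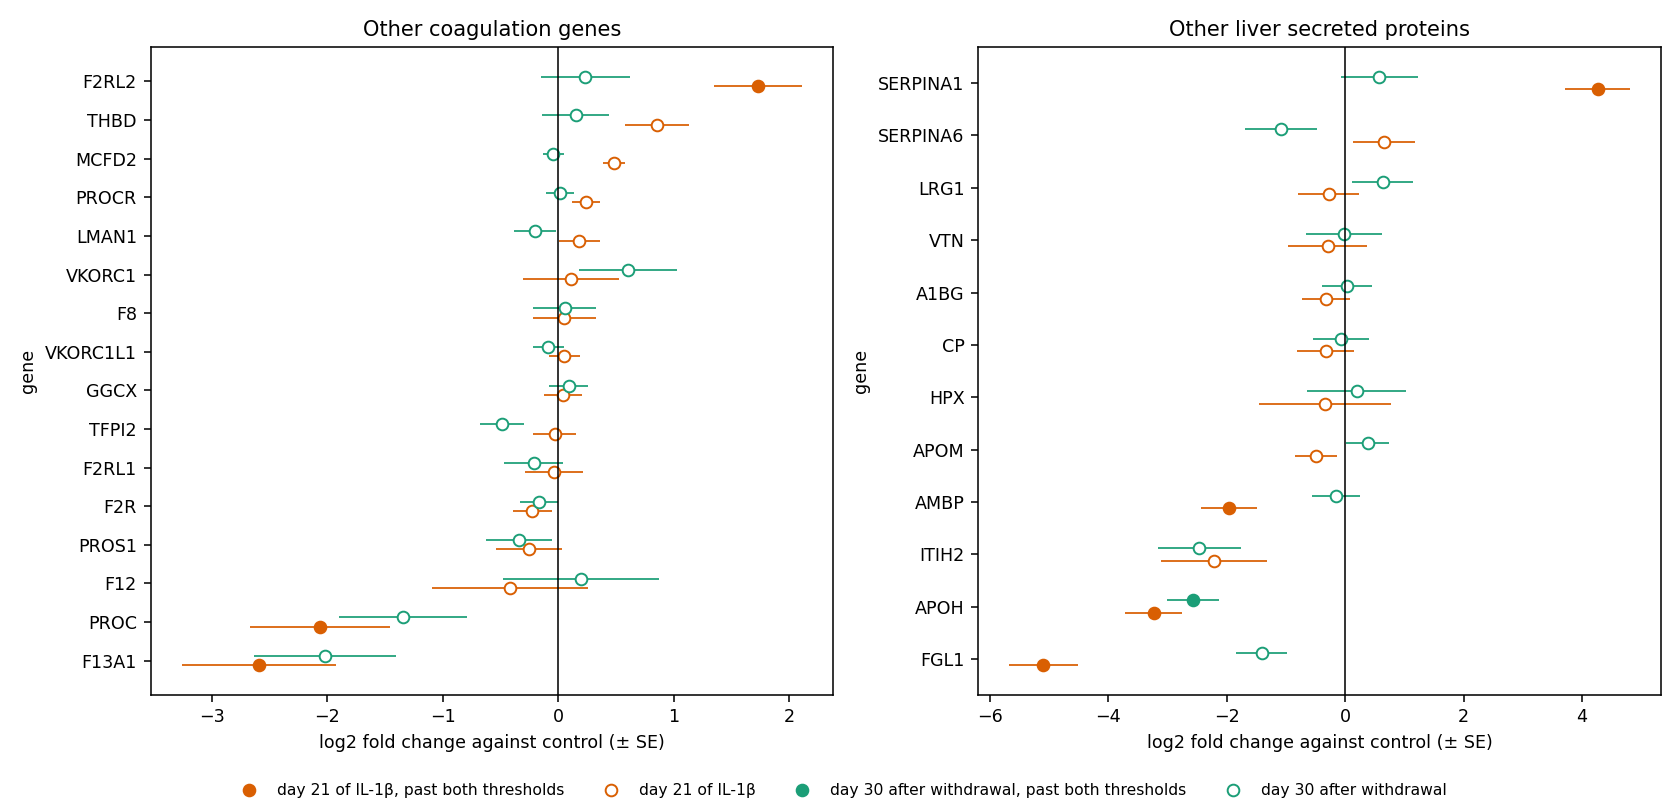
Log2 fold change against control (horizontal axis, bars of 1 standard error) of the tested genes of the wider coagulation list (left) and of the liver secreted list (right), at day 21 of IL-1β (orange) and day 30 after withdrawal (green), with filled points for genes past both thresholds. At day 21, 3 coagulation and 4 liver genes are filled, and at day 30 only APOH is.

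Genes of other proteins that the liver secretes were called in both directions. Of 28 such genes 12 were tested, and 16, ALB, APOA1 and TTR among them, had too few counts. At days 15 and 21, 1 was called higher and 3 lower. At day 6 and at day 6 after withdrawal, 1 was higher and 2 lower. At the last 2 collections only 1, APOH, was lower. Of all genes tested, 2.77%, 4.24% and 4.26% were called at days 6, 15 and 21. At days 6, 15 and 30 after withdrawal 1.8%, 0.954% and 0.897% were. The median log2 fold change of the 12 was -0.10, -0.78 and -0.34 at days 6, 15 and 21, beside -0.02, -0.02 and -0.01 over all genes.

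FGL1, a secreted fibrinogen-like protein, fell by 3.12, 4.46 and 5.10 on the log2 scale at days 6, 15 and 21 (edgeR adjusted p = 7.81e-05, 1.94e-06 and 4.93e-07). At day 21 it was at 7.01, 6.58 and 8.84 CPM in control and 0.217, 0.150 and 0.246 CPM with IL-1β. At day 30 after withdrawal FGL1 was at 8.12, 8.88 and 14.6 CPM in control and 1.76, 2.60 and 7.39 CPM in exposed cells, a log2 fold change of -1.41 that was not called (edgeR adjusted p = 0.128). It was called without replicate 3 (0.00346) and with the high mitochondrial share as a covariate (0.0309), as was that of day 15 after withdrawal (0.00886 and 0.0306 against 0.129). The exposed libraries were below control at both times.

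APOH, beta-2 glycoprotein I, a plasma protein that binds phospholipid, was lower at all 6 collections. At day 30 after withdrawal it was at 6.13, 16.2 and 12.6 CPM in control and 1.36, 1.69 and 2.71 CPM in exposed cells. APOH showed log2 fold changes of -3.23 at day 21 of IL-1β and -2.57 at the last collection (edgeR adjusted p = 2.45e-05 and 0.00127). The 3 calls of APOH during exposure held in each alternative that tested it. Those after withdrawal were lost without replicate 1 (edgeR adjusted p = 0.109, 0.223 and 0.0761), the last 2 also without replicate 2 (0.178 and 0.222). All 3 were also lost when each collection was fitted alone (edgeR adjusted p = 0.0927, 0.120 and 0.314).

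SERPINA1, the antitrypsin that hepatocytes make in the acute phase, rose by 3.12, 3.98 and 4.26 on the log2 scale at days 6, 15 and 21 (edgeR adjusted p = 0.000318, 1.09e-05 and 2.93e-06), though at day 6 not without replicate 1 (adjusted p = 0.0546). At day 21 SERPINA1 was at 0.342, 0.241 and 0.0398 CPM in control and 4.34, 3.52 and 3.61 CPM with IL-1β. At day 30 after withdrawal it was at 0.215, 0.129 and 0.393 against 0.543, 0.260 and 0.421 CPM, and the groups overlapped. AMBP, a precursor of the inhibitor bikunin, fell by 1.80 and 1.97 on the log2 scale at days 15 and 21 (edgeR adjusted p = 0.0131 and 0.00713), both lost without replicate 1 (0.229 and 0.416) and that of day 15 also without replicate 2 (0.0822).

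Of 11 regulators of fibrinogen transcription that were tested, 1 was called higher and 1 or 2 lower at each collection. The share called over all genes lay between 0.897% and 4.26%. HNF4A, a hepatocyte nuclear factor, was at 9.97, 12.1 and 12.1 CPM in control and 0.706, 0.898 and 1.19 CPM with IL-1β at day 21, a log2 fold change of -3.58 (edgeR adjusted p = 4.78e-06). By day 30 after withdrawal it was at 17.8, 9.78 and 27.2 against 4.28, 2.93 and 5.24 CPM, a log2 fold change of -2.14 (edgeR adjusted p = 0.00605, but 0.481 without replicate 1). Exposed libraries of HNF4A stayed below all controls at both times.

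FOXA1 was called at days 6 and 21 at the very edge of the fold threshold and at days 6 and 30 after withdrawal (-1.16 and -1.24), and no call of FOXA1 was left without replicates 1, 2 or 3. FOXA2, CEBPA, CEBPB, CEBPD and STAT3 were not called at any collection, with log2 fold changes at day 21 between -0.77 and 0.22, although FOXA2 passed the test at day 15 without reaching the fold threshold (edgeR adjusted p = 0.0133).

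IL6, the cytokine that induces fibrinogen in hepatocytes, was the regulator that rose. It was at 3.82, 4.10 and 1.79 CPM in control and 124, 145 and 180 CPM with IL-1β at day 21, a log2 fold change of 5.55 (edgeR adjusted p = 1.53e-07). By day 30 after withdrawal IL6 was at 2.80, 5.02 and 0.492 CPM against 20.7, 23.0 and 7.11 CPM (log2 fold change 2.74, edgeR adjusted p = 0.00759, but 0.656 without replicate 1 and 0.103 without replicate 2). Its receptor genes IL6R and IL6ST had log2 fold changes of 0.11 and 0.63 at day 21 and were not called, although IL6ST passed the test at day 15 without reaching the fold threshold (edgeR adjusted p = 0.0118). SOCS3, an inhibitor of IL-6 signalling, had a log2 fold change of 0.65 at day 21 and was not called at any collection.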

How the data were processed

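RNA from A549 cells was sequenced in 36 libraries, 3 in each of 12 groups read from the labels. The authors prepared stranded poly(A) libraries, aligned single-end reads to GRCh37 with TopHat2 2.0.14 and Bowtie2 2.2.5 and counted them per Ensembl gene with HTSeq 0.6.1 (versions from the submitters' processing notes; the strand setting and annotation release are not given in the sources used here). The deposited values are these raw counts. Reads on no gene, 8.48% to 18.6% of all, were left out. Symbols were matched by identifier for 55665 of 63677 genes.

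Genes were kept by filterByExpr (19180 of 39471 with any count), scaled by TMM, and fitted with edgeR 4.0.16's quasi-likelihood model in R 4.3.3, with the 12 groups as terms (24 residual degrees of freedom). P-values were adjusted by Benjamini-Hochberg over all genes tested, and a call needed an adjusted p under 0.05 and a log2 fold change beyond 1. Log2 CPM used a prior count of 2. Exposed groups with 3 or fewer counts in each library were marked. Where such a group held reads, a ratio with an exact 95% interval was given, except for F7 at day 6 after withdrawal. The ratio used counts summed over a group's libraries, divided by their summed sizes after TMM scaling, and not the mean CPM. Where a group held no reads, a bound with 3 counts per library was given. Between 9116032 and 23570026 counts per library set the precision.

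The 8 genes and the lists were chosen with earlier results of these data known. Genes of the lists were named where called at 2 or more collections, or where they regulate fibrinogen genes, and neighbours where adjacent or called. Others were named outside this rule, among them F13A1, THBD, GGCX, VKORC1, LMAN1, MCFD2, F2R, F2RL1, CP and VTN. Promoter sequences are RefSeq's for GRCh38.p14 and matched all 8 genes. PECAM1 was not matched by symbol. Some regulators are not reported here. Libraries of a group were checked for duplicates, and none agreed within sampling noise. The model was tested on simulated counts. Alternatives covered scaling, filters, DESeq2 1.42.0, separate fits, a replicate block, each replicate left out, and the libraries with over 10% mitochondrial counts left out or marked by a covariate.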

Additional observations from a re-analysis of the deposited data

Results flagged for a closer look

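For 2 genes of the liver list, the response 30 days after withdrawal differed from that at day 21 in a test of the difference itself. The response of SERPINA1 was lower by -3.69 on the log2 scale at day 30 after withdrawal than at day 21 (standard error 0.89, edgeR adjusted p = 0.0426), having been 4.26 at day 21 and 0.57 at day 30. The response of FGL1 was higher by 3.69 on the log2 scale (standard error 0.72, edgeR adjusted p = 0.00679), from -5.10 at day 21 to -1.41 at day 30. In 3 of 3 exposed libraries at day 21 SERPINA1 was above and FGL1 below all controls. The same difference was not tested for the 8 genes themselves, since their choice had used these contrasts.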

How the results depend on the processing

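Of 507 alternative values of the 8 genes' log2 fold changes, 3 changed sign (F2 and F3 at day 30 and F7 at day 15 after withdrawal, none past both thresholds), 477 moved by less than 1 standard deviation of the replicates and 30 by more, most of them with a replicate left out and few exposed reads. Depth limits FGG and F5, whose exposed groups hold 1 to 5 counts at most collections, and F7, with 0 counts during exposure. Total-count scaling moved the median log2 fold change of all genes to 0.213 at day 15 after withdrawal, and the share of calls that are higher from 54.8% to 66.1% at day 6, from 62.3% to 81.0% at day 15 after withdrawal and from 48.3% to 60.6% at day 30.

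Counts of calls moved more. Requiring at least 10 counts in every library left only F3 and TFPI of the 8 genes testable, with 1 call at day 6 and at day 6 after withdrawal and 0 at the other 4 collections, 0 calls in the liver list at all 6, 1 call in the coagulation list at each of days 6, 15 and 21, and 0 members differing between control collections. Fitting each collection alone gave 2 calls among the 8 genes at day 15 and 0 at the 3 collections after withdrawal. In the coagulation list it gave 1 at day 15 and 0 at day 6 after withdrawal. In the liver list it gave 0 at the 3 collections after withdrawal, and 0 members differed between control collections. Of all 19180 genes, these fits called 420 at day 15 but only 1, 3 and 0 at days 6, 15 and 30 after withdrawal. The 0 calls after withdrawal therefore say little about these genes. Total-count scaling gave 1 call in the coagulation list at day 15 and 0 at day 6 after withdrawal, where no filter on low counts also gave 0.

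Without the libraries rich in mitochondrial counts, 3 of the 8 genes were called at day 6 and 1 at day 15 after withdrawal, 0 of the coagulation list at day 6 and 0 of the liver list at day 15 after withdrawal, and 0 members differed between control collections. With that share as a covariate the liver list had 2 calls at day 15 and 3 at day 30 after withdrawal, and DESeq2's Wald test gave 2 at day 30.

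With each replicate left out in turn, calls among the 8 genes ranged from 3 to 5 at day 6, 3 to 5 at day 15, 3 to 4 at day 21, and 2 to 3, 1 to 3 and 0 to 3 at days 6, 15 and 30 after withdrawal. Those in the coagulation list ranged from 0 to 2, 0 to 1 and 0 to 2 during exposure and from 0 to 1 at day 6 after withdrawal. Those in the liver list ranged from 0 to 3, 0 to 2 and 0 to 2 after withdrawal, and members differing between control collections from 0 to 1. Without replicate 1, calls over all genes fell from 531 to 176 at day 6 and from 172 to 6 at day 30 after withdrawal. The cause of these shifts was not tested.

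The labels do not say what a replicate number shares. Control and exposed libraries of the same number deviated together with a correlation over 0.1 in 14 of 18 pairs, not in all (range -0.34 to 0.72), so the numbers were not taken as pairs. That 30 of 36 libraries were most like one with their own number is a hint of pairing from the data, not the design. In the fit with a replicate block, FGL1 was called at days 15 and 30 after withdrawal (log2 fold changes -1.55 and -1.50, edgeR adjusted p = 0.0131 and 0.0116), the liver list had 2 calls at day 15 and 2 at day 30 after withdrawal, and the 8 genes had 6 at days 15 and 21.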
